A study of Homo sapiens with 2 samples.

Results

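AHNAK and its relative AHNAK2, together with 7 members of the plakin family (PLEC, EPPK1, MACF1, DST, DSP, PPL and EVPL), encode very large proteins that hold the cytoskeleton and the plasma membrane together. The 9 genes were taken from the mRNA-seq table by gene name, out of 11420 gene records, and each had 1 record. They were selected on family membership and on log2 ratios of these same libraries, which were already known, so every value of the comparison below is a description and supports nothing independently. RNA was taken 96 hr after lentiviral infection of HCT116, an established human colorectal carcinoma cell line. The compared groups were cells that expressed an shRNA that targets LAST, a noncoding transcript induced by c-Myc, and cells that expressed a control shRNA; both carried a lentivirus, and only 1 of the hairpins that the study designed against LAST was sequenced. With 1 library per group no difference has a replicate check, and neither a test nor an SD can be given. The level of LAST was not analysed here and cannot serve as a check of the labels.

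Proteins of the AHNAK type are scaffolds of the cell cortex, built mostly of a long run of repeated units, and AHNAK binds the complex of annexin A2 and S100A10 at the plasma membrane. Plakins are cytolinkers. Depending on which modules a member carries, it ties intermediate filaments to junctions, to actin or to microtubules, and epithelial cells rely on these links to withstand mechanical strain. In stratified epithelia some plakins also become part of the cornified envelope, the protein shell of dead surface cells.

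The members did not move together. With LAST shRNA, 4 of the 9 genes (AHNAK, EPPK1, PLEC and AHNAK2) were higher at a log2 ratio of 0.58 or above, the threshold of the study, a direction that 6.80% of all records took. EVPL was the 1 member at -0.58 or below, as were 5.88% of all records. DSP, DST, MACF1 and PPL lay between. The log2 ratio was formed by subtracting log2(FPKM + 1) of the control shRNA library from that of the LAST shRNA library. FPKM is the number of fragments per length of transcript and per size of the library, hence a level per length. Levels of different genes are set side by side on that scale. How transcripts of different length were combined into 1 value per gene is not given in the sources used here, so such orders are approximate. The median log2 ratio was 0.10 over the 9 members and 0.01 over all records. Summed over the members, FPKM was 220.4 with LAST shRNA, against 132 with control shRNA.

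**Figure D1:**
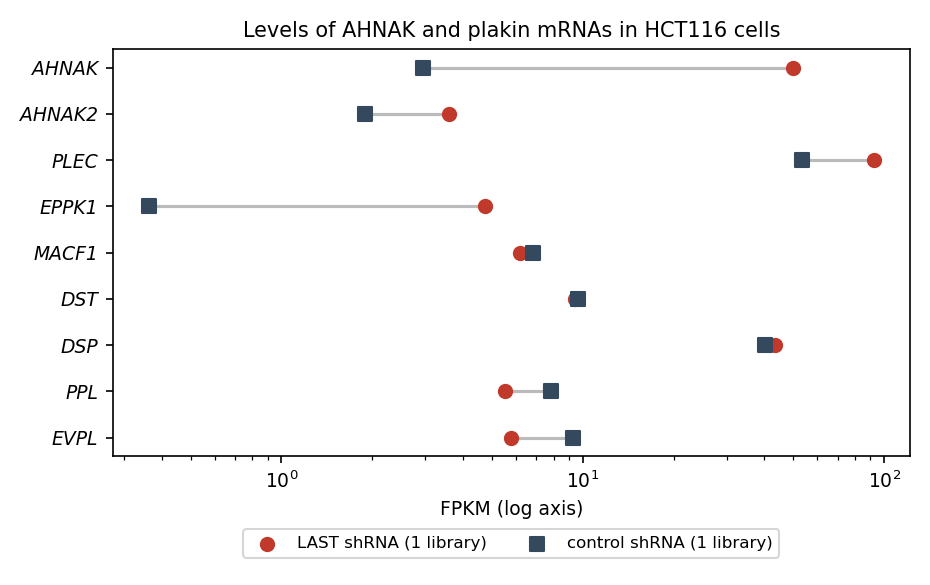
FPKM (log axis) of the 9 genes, with 1 circle for the LAST shRNA library and 1 square for the control shRNA library per gene and a grey line between them. AHNAK (49.7 against 2.95) and EPPK1 (4.75 against 0.364) have the longest lines, while the symbols of DST and DSP nearly coincide.

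The order of the levels differed between the libraries. With LAST shRNA, PLEC was highest at an FPKM of 92.2, followed by AHNAK (49.7), DSP (43.3), DST (9.45), MACF1 (6.17), EVPL (5.79), PPL (5.54), EPPK1 (4.75) and AHNAK2 (3.59). With control shRNA, PLEC (53.3) and DSP (40.3) led, DST (9.65), EVPL (9.25), PPL (7.84) and MACF1 (6.86) came next, and AHNAK (2.95), AHNAK2 (1.89) and EPPK1 (0.364) were the 3 lowest. With no replicates, it is not known which neighbours in these orders differ beyond their spread. The ratio of the highest to the lowest member was 25.7 with LAST shRNA, against 147 with control shRNA.

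AHNAK, the largest cortical scaffold of the group, had the largest log2 ratio. It was at an FPKM of 49.7 with LAST shRNA, against 2.95 with control shRNA, a 16.9-fold higher level (log2 ratio 3.68). It ranked 8 of 11420 records by log2 ratio, and 510 by level with LAST shRNA against 7501 with control shRNA. AHNAK thus stood second to PLEC in cells with LAST shRNA and among the weaker members in control cells. In hg19, the build of the deposited table, the gene (ENSG00000124942.13_2) lay on the minus strand of chromosome 11 from 62201014 to 62323707. AHNAK2, whose protein shares the repeated architecture of AHNAK, was 1.89-fold higher, at 3.59 with LAST shRNA, against 1.89 with control shRNA (log2 ratio 0.67). It ranked 624 by log2 ratio, and 5.46% of records had a ratio as high or higher. AHNAK2 (ENSG00000185567.6_1) lay on the minus strand of chromosome 14 from 105403581 to 105444694.

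Nearly the whole coding sequence of AHNAK and AHNAK2 sits in 1 giant exon that is made of repeats. By GENCODE release 29, the last of the 5 exons of AHNAK held 96.7% of the 18787-base transcript, and the last of the 7 exons of AHNAK2 held 95.8% of 18254 bases. The most repeated 30-base windows of the coding sequences are printed because reads from such windows have several places to go within the gene. They start in frame, at coding base 2608 of AHNAK and 2017 of AHNAK2 at their first copy. For each gene 2 variants within 3 mismatches follow, and capitals mark the bases at which they differ.
AHNAK: ggcccagactggcacctgaagatgcccaag
AHNAK variant: ggcccagactggcacctgaagatgccTaag
AHNAK variant: ggcccagactggcacctAaaAatgcccaaA
AHNAK2: agcaagttcaaaatgcccaagttcaagatg
AHNAK2 variant: agcaagttcaaaatgcccaaAttcaagatg
AHNAK2 variant: agcaGgttcaaaatgcccaagttcaagatg
The AHNAK window occurred 9 times without a mismatch, a median of 1261 bases apart, and 22 windows matched it with at most 3 mismatches. The AHNAK2 window occurred 18 times, a median of 495 bases apart, and 24 windows matched it with at most 3 mismatches. Copies thus lay closer together in AHNAK2, at 474 to 1485 bases, than in AHNAK, at 768 to 3498. Of all 50-base windows along the transcript, 8.63% occurred more than 1 time within AHNAK and 12.4% within AHNAK2, whereas 2.25% of all records matched to the annotation had any such repeat. No 50-base window of either transcript was found in a transcript of another gene.

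A level of AHNAK can stand for transcripts of very different size. Of its 7 annotated coding transcripts, 1 carries the giant exon and the other 6 are 568 to 1024 bases long. The deposited value is 1 number per gene, and which transcripts make up the 49.7 and the 2.95 was not tested. In contrast, the 2 annotated coding transcripts of EPPK1 are of similar length, 15530 and 16002 bases, and those of AHNAK2 have 3436 and 18254.

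PLEC encodes plectin, a plakin that binds actin and intermediate filaments and anchors keratin to integrin beta 4 in hemidesmosomes. It was at an FPKM of 92.2 with LAST shRNA, against 53.3 with control shRNA, 1.73-fold higher (log2 ratio 0.78), and was the most abundant member in both libraries. The difference in FPKM was 38.8 for PLEC, second to the 46.8 of AHNAK. PLEC ranked 464 by log2 ratio, and 4.06% of records had a ratio as high or higher. EPPK1 encodes epiplakin, which consists of plakin repeats alone and binds keratin filaments. It was at 4.75 with LAST shRNA, against 0.364 with control shRNA, 13.1-fold higher (log2 ratio 2.08), and ranked 69 by log2 ratio. It was the 1 member under an FPKM of 1 in a library, so its fold rests on a value near the bottom of the table; with a pseudocount of 0.1 the log2 ratio was 3.39.

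PLEC and EPPK1 are neighbours. Both lay on the minus strand of chromosome 8 in hg19, EPPK1 (ENSG00000261150.2_1) from 144939497 to 144952632 and PLEC (ENSG00000178209.14_2) from 144989315 to 145050902, with 36682 bases between them. They are also related in sequence: 1.81% of the 50-base windows of EPPK1 and 0.592% of those of PLEC occurred in transcripts of other genes, with each other as the most frequent match. Within EPPK1 50.8% of windows occurred more than 1 time, which placed it 6th of all annotated records, while in PLEC this share was 0.263%. Levels of EPPK1 are therefore uncertain, since the counting could lose or split reads from repeats. The EPPK1 locus spanned 13136 bases in hg19, less than its 16002-base transcript in GRCh38, so the repeat share in the build of the table may be another.

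**Figure D2:**
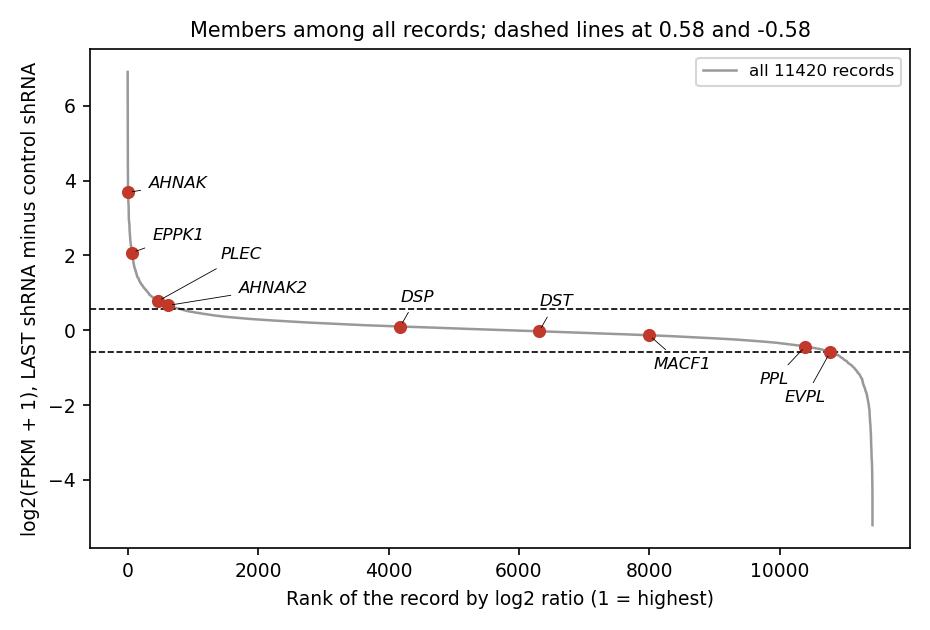
All 11420 records in order of log2 ratio (grey line; x axis, rank with 1 as the highest; y axis, log2 ratio of FPKM + 1, LAST shRNA minus control shRNA), with the 9 members as circles and dashed lines at 0.58 and -0.58. AHNAK sits at rank 8 and EPPK1 at 69, PLEC and AHNAK2 lie just above the upper line, DSP, DST and MACF1 lie on the flat middle, and EVPL falls at the lower line.

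The spectraplakins MACF1 and DST, which have an actin-binding end and a microtubule-binding end, were nearly level between the libraries. DST, known for the BPAG1 isoforms of neurons, muscle and skin, was at an FPKM of 9.45 with LAST shRNA, against 9.65 with control shRNA (log2 ratio -0.03). MACF1 was at 6.17 and 6.86 (log2 ratio -0.13). These were the longest proteins of the group, with 7461 residues encoded by DST and 7592 by MACF1, but their coding sequence is spread over 98 and 101 exons, and the largest exon held 24.6% and 22.4% of the transcript. Both genes have many annotated coding transcripts, 18 for DST and 17 for MACF1. DST (ENSG00000151914.19_2) lay on the minus strand of chromosome 6 from 56322785 to 56819426, and MACF1 (ENSG00000127603.23_2) on the plus strand of chromosome 1 from 39546988 to 39952849.

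DSP encodes desmoplakin, the plakin that fastens keratin filaments to desmosomes, and it was the third most abundant member with LAST shRNA and the second in control cells. Its FPKM was 43.3 with LAST shRNA, against 40.3 with control shRNA (log2 ratio 0.10). Of all records 36.6% had a ratio as high or higher. DSP (ENSG00000096696.13_1) lay on the plus strand of chromosome 6 from 7541808 to 7586950.

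PPL and EVPL, which encode periplakin and envoplakin, were the 2 lowest members by log2 ratio. The proteins pair with each other and are best known from the cornified envelope of squamous epithelium. EVPL was 1.60-fold lower, at an FPKM of 5.79 with LAST shRNA, against 9.25 with control shRNA (log2 ratio -0.59), just past the threshold of -0.58. PPL was at 5.54 with LAST shRNA, against 7.84 with control shRNA (log2 ratio -0.44), short of the threshold; 9.04% of records had a ratio as low or lower, against 5.72% for EVPL. The levels of this pair were within 0.254 FPKM units of each other with LAST shRNA, and within 1.41 with control shRNA. EVPL (ENSG00000167880.7_2) lay on the minus strand of chromosome 17 from 74000583 to 74023533, and overlapped TEN1-CDK3 (4.51 with LAST shRNA, against 2.99 with control shRNA) and CDK3 (0.312 and 0.672) on the other strand. Whether counting used strand is not given in the sources used here, so reads of overlapping genes may not be separate. In addition, 2.40% of the 50-base windows of EVPL occurred in other genes, with EVPLL, its short relative, as the most frequent match. PPL (ENSG00000118898.15_2) lay on the minus strand of chromosome 16 from 4932508 to 5010742.

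Among the members, the 4 that were higher with LAST shRNA had the longest uninterrupted coding stretches. The members were selected on these same ratios, so this order is a description, and a link of stretch to ratio was not tested. The longest coding stretch within 1 exon was 17328 bases in AHNAK, 16734 in AHNAK2 and 15264 in EPPK1, which were the 3 longest of all annotated records, and 6216 in PLEC. It was 5508 in DST, 5451 in MACF1, 3438 in EVPL, 3234 in DSP and 2661 in PPL. The median record had 280 bases. The 3 other genes with a stretch of 10000 bases or more had a median log2 ratio of -0.31, and 1 was above 0. Among them STARD9, a kinesin gene, was at 0.608 with LAST shRNA, against 0.454 with control shRNA (log2 ratio 0.15). The single-exon gene ZNF469 was listed at 0 with LAST shRNA and at 1.23 with control shRNA (-1.16), a ratio in the direction opposite to AHNAK. Of 58 other genes with a stretch of 4000 to 10000 bases, the threshold was passed upwards by 3 and downwards by 1, and the median was -0.13.

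**Figure D3:**
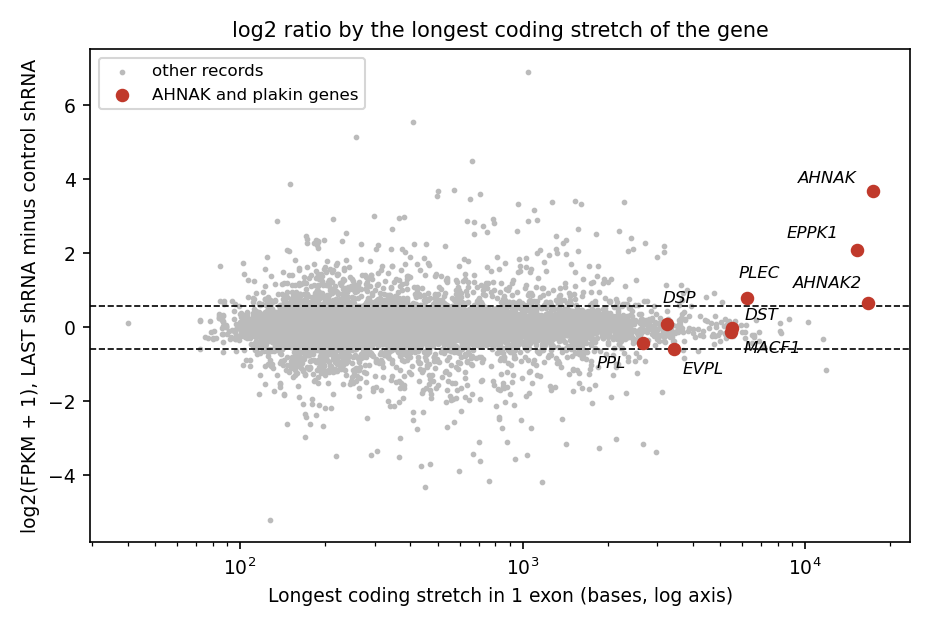
Longest coding stretch within 1 exon (x axis, bases, log axis) against the log2 ratio of FPKM + 1, LAST shRNA minus control shRNA (y axis), for all annotated records in grey and the 9 members as red circles; dashed lines are at 0.58 and -0.58. AHNAK, AHNAK2 and EPPK1 lie at the far right and above the upper line, and grey points at 10000 bases or more include STARD9 at 0.15 and ZNF469 at -1.16.

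Other genes for giant proteins mostly lay between the thresholds. Of 290 other genes whose longest annotated coding sequence gives 2000 residues or more, 3 (1.03%) passed 0.58 upwards and 4 (1.38%) passed -0.58 downwards, against 6.80% and 5.88% of all records, and the median was -0.05. These counts depended on the pseudocount: with 0.1 in place of 1 they were 11 and 8, and those of all records were 1242 and 999. With the pseudocount of 1, the 8 members of 2000 residues or more had 4 and 1, with a median of 0.38. Among other giant genes whose FPKM reached 1 in each library, the highest ratios were those of HELZ2, an interferon-induced helicase gene (5.44 with LAST shRNA, against 2.42 with control shRNA, log2 ratio 0.92), and the receptor gene NOTCH3 (5.58 and 2.50, 0.91), followed by SYTL2 (0.56), ITPR2 (0.49) and PLXNB1 (0.47). The ratios of AHNAK and EPPK1 were higher than that of HELZ2, and those of PLEC and AHNAK2 were lower. HIVEP3, which was under 1 with control shRNA (1.18 with LAST shRNA, against 0.370), was the third gene past 0.58, at 0.67. At the other end of the genes that reached 1 stood, among others, CHD6 (-0.66), the kinase gene MTOR (-0.58), ZGRF1 (-0.57) and ZNF292 (-0.54).

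Base composition differed among the higher members. GC content was 68.1% in EPPK1 and 67.0% in PLEC, but 58.5% in AHNAK2 and 49.3% in AHNAK, close to the 49.8% of the median record. EVPL (65.3%) and PPL (59.5%), whose ratios were below 0, were also GC-rich, and DSP (47.9%), MACF1 (46.1%) and DST (41.3%) were not. GC content thus overlapped between members with a positive ratio and those with a negative one, and an effect of base composition was not tested.

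Most genes of the partner lists, like most records, lay between the thresholds. These lists hold binding partners of the members and other genes of related structures, not binding partners alone. In 7 partner lists, which together had 73 measured genes of 99, 2 genes (2.74%) passed 0.58 upwards and 4 (5.48%) passed -0.58 downwards, against 6.80% and 5.88% of all records, and the median was -0.04. Of 8 measured AHNAK partners 0 passed the threshold. S100A10, the light chain of the annexin A2 complex, was at 67.0 with LAST shRNA, against 68.9 with control shRNA (log2 ratio -0.04), and ANXA2 itself at 97.7 in both. The calcium-binding gene S100A11 was at 172 and 157 (0.13), the ferlin gene MYOF at 73.9 and 66.2 (0.16), PLCG1, a phospholipase gene, at 4.65 and 3.86 (0.21) and ANXA1 at 78.0 and 90.9 (-0.22). Beside the 16.9-fold higher level of AHNAK, the ratios of its 8 measured partners thus spanned -0.22 to 0.21.

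Desmosome genes, with 8 measured of 13, also had 0 past the threshold, and their median was -0.17. DSG2, the desmosomal cadherin of simple epithelium, was at 31.9 with LAST shRNA, against 47.6 with control shRNA (log2 ratio -0.56) and DSC3 at 2.27 and 3.62 (-0.50). The linkers between cadherins and desmoplakin were on both sides of 0, with JUP (plakoglobin) at 65.6 and 45.1 (0.53), PKP3 (plakophilin 3) at 25.0 and 19.6 (0.34), PKP2 (plakophilin 2) at 2.66 and 3.43 (-0.28) and PKP4 at -0.04. PERP was at -0.14. All 7 hemidesmosome genes were measured and 0 passed the threshold, with a median of 0.03. ITGB4, the integrin that plectin binds, was at 66.3 with LAST shRNA, against 50.4 with control shRNA (0.39). The laminin chain gene LAMB3 (-0.13), ITGA6 (-0.09) and CD151 (-0.03) had ratios below 0.

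Intermediate filament genes, a list that also includes the nuclear lamins, had 14 measured of 18. Of these, 1 was higher and 2 were lower past the threshold, and their median was -0.02. The main keratins of simple epithelium stayed close, KRT8 at 215 with LAST shRNA, against 234 with control shRNA (log2 ratio -0.12) and KRT18 at 294 and 271 (0.12). KRT80 was lower, at 2.93 and 8.74 (-1.31), and SYNM, at 0.218 and 0.853 (-0.61), was the other gene past the lower threshold. KRT20, an intestinal keratin, was at 3.62 and 0.767 (1.39); KRT20 and SYNM fall outside the naming rule and were named after their values were seen. KRT19 was at 182 and 151 (0.27). Among lamins, LMNB1 (-0.49) and LMNB2 (-0.30) were below 0, and LMNA (-0.02) was close to it, as was NES, at -0.01.

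Of 16 microtubule end genes, a list that includes partners of spectraplakins, MAPRE1 was higher and 0 were lower past the threshold. Their median was -0.14, and 14 had a ratio below 0, as did 5560 of all 11420 records. MAPRE1 encodes EB1, the tip-tracking protein, and was 2.04-fold higher, at 66.9 with LAST shRNA, against 32.8 with control shRNA (log2 ratio 1.01). MAPRE3, which encodes the relative EB3, was at 1.63 and 2.67 (-0.48). The minus-end genes differed, with CAMSAP3 at 0.35 and CAMSAP2 at -0.45, and DCTN1 (-0.04) and GAS2L3 (-0.01) were nearly level. Of 17 measured actin cross-linkers VCL alone passed the threshold, at 24.2 with LAST shRNA, against 44.9 with control shRNA (-0.87); VCL encodes vinculin of focal adhesions and adherens junctions. The spectrin gene SPTBN1 was at 7.96 and 10.7 (-0.39), the filamin gene FLNA at -0.21 and the talin gene TLN1 at -0.20, and UTRN and FLNC were at 0.02.

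Of the cornified envelope genes 3 of 13 were measured. CSTA, which encodes the protease inhibitor cystatin A, was lower, at 2.70 with LAST shRNA, against 5.31 with control shRNA (log2 ratio -0.77), in the direction of EVPL and PPL, and KAZN, a gene for a periplakin-binding protein, was at 2.21 and 1.59 (0.31). TGM1, the cross-linking transglutaminase, was at 0.731 and 0.599. With 3 genes this list gives no picture of the whole envelope.

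**Figure D4:**
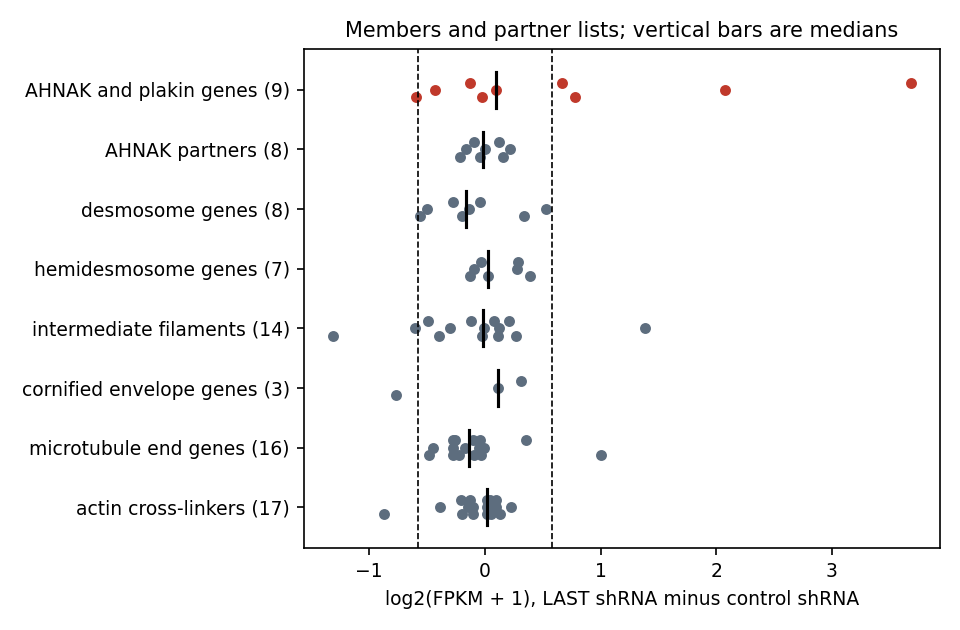
log2 ratios of FPKM + 1 (x axis, LAST shRNA minus control shRNA) for the 9 members in red and for each partner list in grey, 1 point per measured gene with the number of genes in brackets; vertical bars are medians and dashed lines lie at 0.58 and -0.58. The members span -0.59 to 3.68, and the widest partner list, intermediate filaments, spans -1.31 to 1.39.

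Summed FPKM over all records was 155390 with LAST shRNA and 154798 with control shRNA, and the number of reads behind it is unknown. Of 8 colon epithelial markers 5 were measured, and 0 of them passed the threshold. EPCAM was at 139 with LAST shRNA, against 137 with control shRNA, CDH1 (E-cadherin) at 22.0 and 15.8 (0.45), and the intestinal factor CDX2 was low, at 1.02 and 1.58 (-0.35). KRT20, an intestinal keratin outside this list that was named after its value was seen, was at 3.62 and 0.767 (1.39). Its level with control shRNA was thus under 1. Of 6 squamous markers 0 were measured, of 6 stromal markers COL1A1 (1.90 and 1.32), and of 7 blood and endothelial markers 0. CCND1, the gene of main interest to the study, was at 126 with LAST shRNA, against 216 with control shRNA (log2 ratio -0.78), as far below 0 as PLEC was above it.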

How the data were processed

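The authors deposited 1 table of FPKM values per gene for both libraries, with position, strand and type in hg19. Per the labels, libraries were made with a KAPA stranded kit from total RNA, and the submitters' processing notes list cutadapt, FastQC, HISAT2 and StringTie; their versions and settings were not given in the sources used here. Only records whose higher value was at least 0.500 were held. Depth is unknown, so no interval is given, and whether values of weak genes fall on whole-read steps was not tested.

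Log2 ratios used a pseudocount of 1, with no further scaling, and the threshold of 0.58 of the study. Members and lists were chosen with earlier results of these data known. Named genes were the 9 members, in each list up to 4 genes farthest from 0 and 2 closest to 0 in ratio whose FPKM reached 1 in each library, the 5 highest and 5 lowest giant protein genes under that filter, the 5 genes nearest to AHNAK in ratio, genes overlapping a member, and CCND1. Exceptions are SYNM, KRT20, TGM1 and PKP2 in their lists, and HIVEP3, STARD9 and ZNF469. Some genes that the rule names are not reported here. Structure came from GENCODE release 29 (GRCh38), by gene identifier only, for 11314 records (99.1%), from the coding transcript with the longest coding sequence. Residues were counted from that coding sequence, not from RefSeq proteins as planned. Counting of genes past the threshold was tested on simulated data with 200 changed records. Changes were placed only in records with a mean FPKM above that of most members, so weak members such as EPPK1 were not covered. The computations ran in Python 3.11.15 (pandas 2.3.3, numpy 2.4.6), and plots were drawn with matplotlib 3.10.9.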

Additional observations from a re-analysis of the deposited data

How the results depend on the processing

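The log2 ratio of each member kept its direction and its side of 0.58 with pseudocounts of 0.1 and 0.5, with TPM, with the median ratio of all records set to 0 and with equal upper quartiles. EVPL ranged from -0.67 to -0.59, EPPK1 from 2.07 to 3.39 and AHNAK from 3.67 to 4.03. At a threshold of 1, 2 members were higher and 0 lower, as were 318 and 286 of all records. The partner lists then had 2 higher genes and 1 lower, and the other giant protein genes 0 higher and 1 lower. With a pseudocount of 0.1, 1242 of all 11420 records were higher and 999 lower. Of the 73 partner genes 3 were then higher and 7 lower, and of the 290 other giant genes 11 were higher and 8 lower. With TPM, 1198 of all records were higher and 978 lower, 3 partner genes were higher and 8 lower, and 11 giant genes were higher and 8 lower. TPM values are larger than FPKM, so the pseudocount weighs less. With a pseudocount of 0.5, 5 giant genes were higher and 6 lower, as were 974 and 814 of all records. Among giant genes of 3000 residues or more, with a pseudocount of 1, 0 were higher and 1 lower. Among genes whose FPKM reached 1 in each library, which drops EPPK1, 1 partner gene was higher and 3 lower. Of all records 557 were then higher and 516 lower, and the median of the members was 0.0363. That median was also 0.0363 without AHNAK, an alternative chosen after seeing the data. No paired analysis was possible because each group had 1 library. Depth is unknown, so the counting error of each value is too.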

Other observations

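The genes nearest to AHNAK in log2 ratio (3.68) among those whose FPKM reached 1 in each library were unlike it in size. LRRC58 was at 28.4 with LAST shRNA, against 1.28 with control shRNA (3.69), MARCKSL1, a gene for an actin-associated membrane protein, at 75.6 and 5.56 (3.55), the interferon-induced gene IFI6 at 121 and 7.28 (3.88), MYADM at 25.1 and 1.60 (3.33) and RRS1, a ribosome biogenesis gene, at 56.5 and 5.46 (3.16). Their longest annotated proteins had 371, 195, 138, 322 and 365 residues, in that order, against 5890 for AHNAK. The largest exon held 87.3% of the transcript in LRRC58, 74.5% in MARCKSL1, 50.1% in IFI6, 91.3% in MYADM and all of it in RRS1, compared with 48.8% in the median record.

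GGAG, a short motif bound by CNBP, the protein studied here as a partner of LAST, was counted on the sense strand of the longest coding transcript, overlapping matches included. It occurred in 99.9% of the annotated records, so density is given. EVPL had 25.9 motifs per kilobase, PLEC 22.7, PPL 22.0 and EPPK1 16.0, against 7.16 in the median record, and they ranked 13, 36, 48 and 292 of all annotated records. AHNAK2 had 11.9, DSP 8.98, MACF1 8.27, DST 6.24 and AHNAK 5.91. The 4 members with the highest density included the 2 lowest log2 ratios (EVPL and PPL) and 2 of the 4 highest (PLEC and EPPK1). These 4 also had the highest GC content of the members (EPPK1 68.1%, PLEC 67.0%, EVPL 65.3% and PPL 59.5%), against 49.8% in the median record. Density was not adjusted for base composition. A match is a description of letters in the annotated transcript and does not show a bound site.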
